A study of Mus musculus with 2 samples.

Results

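The 7 genes described here, Snai1, Snai2, Zeb1, Zeb2, Sox9, Msx1 and Msx2, encode transcription factors of the cardiac cushions. They were chosen by name and not by a rule on their values, but with earlier results of these data known. They are 7 of the 22401 features counted in whole mouse hearts at E11.5 (embryonic day), and all 7 had UMIs (unique transcript molecules) in both libraries. There was 1 single-cell library per genotype. The control embryos, Hand2fx/+ R26RmTmG/wt, carried 1 conditional Hand2 allele and no Cre. The H2CKO embryos, Nfatc1Cre/wt Hand2fx/fx R26RmTmG/wt, carried conditional alleles on both chromosomes and Cre from the Nfatc1 locus, which is active in the endocardium, the inner lining of the heart. Both groups therefore shared a conditional Hand2 allele and 1 copy of a reporter that switches from membrane Tomato to membrane GFP after Cre has acted, and the control had no Cre of its own. How many embryos, and of which sex, went into a library is not given by the labels. The comparison asks how the levels of these factors in endocardial cells and in the mesenchyme differ when Hand2, itself a transcription factor, is deleted from the endocardial lineage.

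Heart valves and septa begin as cushions. Signals from the myocardium act on the endocardium beside it, and some endocardial cells lose their junctions, enter the jelly-like matrix and become mesenchyme, an endothelial-to-mesenchymal transition (EMT). The Snail factors Snai1 and Snai2 and the ZEB factors Zeb1 and Zeb2 are repressors that bind E-boxes and are known for lowering junction genes such as VE-cadherin. Sox9 is a high-mobility-group factor that cushion mesenchyme needs to expand and to make matrix. Msx1 and Msx2 are homeobox factors downstream of BMP signals, known to act together in the atrioventricular cushions.

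Both Snail and ZEB proteins recognise the E-box CAGGTG, and the promoters of the members were searched for it on both strands in the 250 bases before each RefSeq start (GRCm38.p6). RefSeq windows were at hand for 4 members, and 2 of them held the motif in their single window, while Zeb2 alone had 4 windows. Counted by window and not by gene, over all genes 17.22% of 32851 held it. The 2 sequences are shown because they are the member windows that hold the motif, one of them that of a Snail factor. They are written 5′ to 3′ in the direction of the gene, with the motif, here in its reverse complement, in capitals, 126 bases before the start of Snai1 (chr2:167537945-167538194, plus strand) and 210 bases before the start of Msx1 (chr5:37824586-37824835, minus strand).
Snai1: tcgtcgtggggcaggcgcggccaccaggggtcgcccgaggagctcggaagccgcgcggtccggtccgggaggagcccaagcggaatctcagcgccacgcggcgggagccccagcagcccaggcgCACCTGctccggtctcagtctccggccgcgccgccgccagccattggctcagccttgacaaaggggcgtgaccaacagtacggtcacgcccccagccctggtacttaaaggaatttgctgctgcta
Msx1: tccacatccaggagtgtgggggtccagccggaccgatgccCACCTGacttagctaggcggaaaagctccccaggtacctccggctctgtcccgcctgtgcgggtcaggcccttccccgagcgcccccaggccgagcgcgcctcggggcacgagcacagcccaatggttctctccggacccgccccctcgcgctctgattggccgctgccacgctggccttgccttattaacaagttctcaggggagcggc
A match of these letters is a description and not a measured binding site. The windows of Zeb2 and Msx2 did not hold them.

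In GENCODE vM21 (GRCm38) Snai1 lies at chr2:167538195-167542814 on the plus strand and Snai2 at chr16:14705852-14709385 on the plus strand. Zeb2 lies at chr2:44983632-45117395 on the minus strand, and Zeb1 lies on chromosome 18, on the plus strand. Sox9 lies at chr11:112782224-112787760 on the plus strand, Msx1 at chr5:37820485-37824583 and Msx2 at chr13:53466884-53473074, both on the minus strand. Over all barcodes the control and H2CKO matrices held from 1817 (Msx2) to 22414 (Sox9) and from 938 (Snai1) to 6469 (Zeb2) UMIs of a member.

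The control matrix held 14114 barcodes and 195825720 UMIs, and the H2CKO matrix held 13885 barcodes and 201477256 UMIs. Filtering left 8793 and 11581 cells, whose median depth was 16223 and 13454 UMIs; 28 barcodes remained in both libraries. The cells formed 14 clusters, of which 13 were named from marker lists that held none of the 7 genes. Hand2 fell in endothelial-like cells from 230 CPM (UMIs of the gene per 1000000 UMIs of the class; 1417 UMIs) to 11.2 CPM (107 UMIs), and GFP rose from 16.1 to 1187 CPM. In mesenchymal-like cells Hand2 fell from 180 to 46.7 CPM and GFP rose from 15 to 799 CPM. All 12 endothelial markers passed 20 CPM in the endothelial-like class and all 12 mesenchymal markers in the mesenchymal-like class, in both libraries.

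A level below is the CPM of a class in 1 library with its 95% exact Poisson interval, which covers counting error only. There is no replicate in either group, so no difference could be tested against the spread between animals, and every comparison is between these 2 libraries. Log2 ratios compare H2CKO with the control after 5 is added to each CPM. A gene is said to have risen or fallen only if it reached at least 20 CPM and 20 UMIs in the higher library and differed by at least 2-fold on that scale.

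The mesenchymal-like class, 1604 control and 1080 H2CKO cells, had the highest level of Snai1, Snai2, Sox9, Msx1 and Msx2 among the 6 named classes, although Msx2 was higher still in clusters 9 and 11. Zeb1 was highest in endothelial-like cells and Zeb2 in white blood cell-like cells. These orders held in both libraries.

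**Figure D1:**
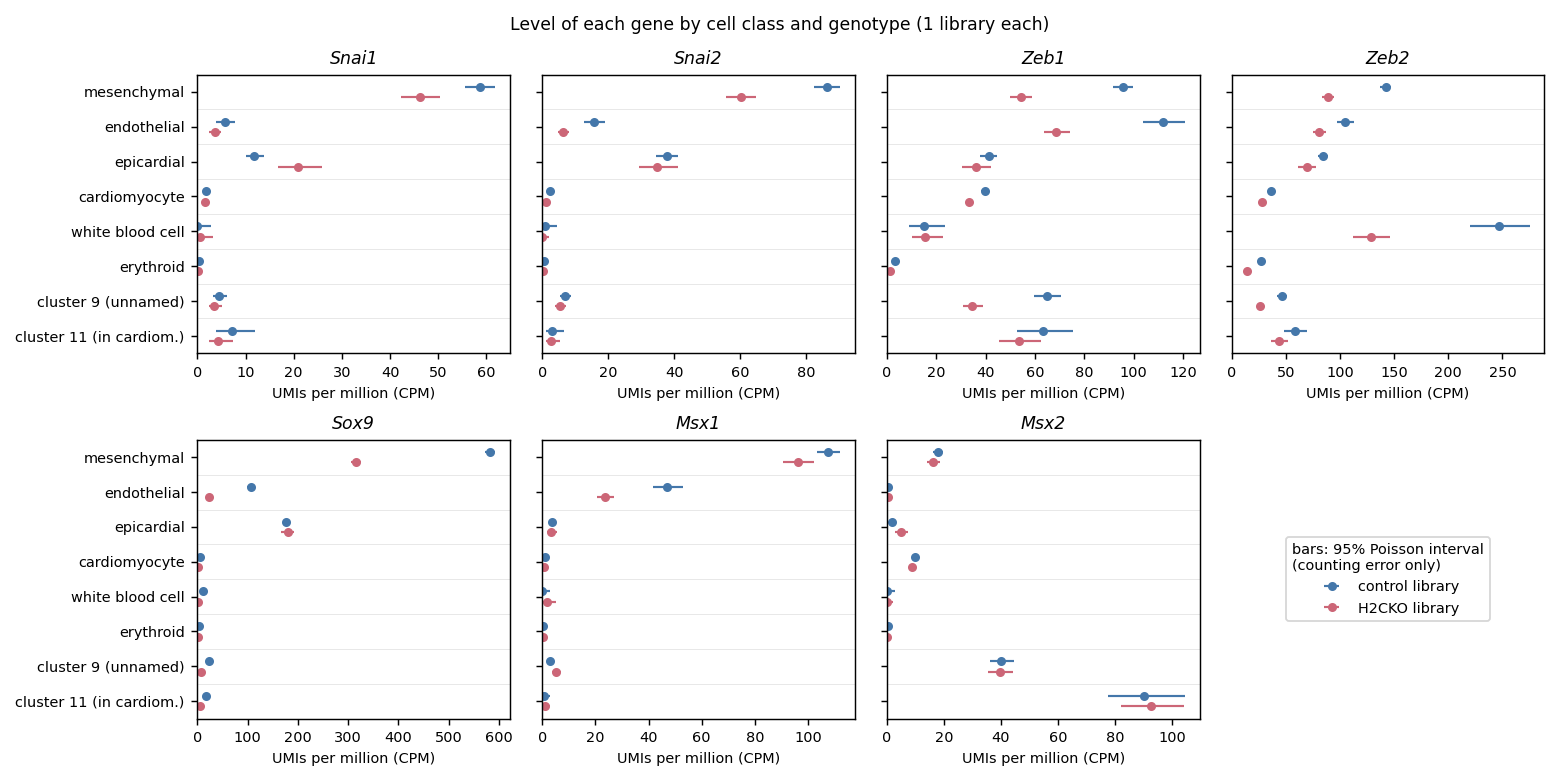
Level of each of the 7 genes in CPM (x axes, each with its own scale) in 6 cell classes, in the unnamed cluster 9 and in cluster 11, which is also counted within the cardiomyocyte-like class (y axis). Points are the control (blue) and H2CKO (red) libraries and bars the 95% Poisson intervals; Sox9 in endothelial-like cells lies at 106 CPM in the control and 22.3 CPM in H2CKO.

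In endothelial-like cells, 372 from the control and 752 from H2CKO, Sox9 fell 4.77-fold and no other member passed the 2-fold limit. Of the 7 members, 4 reached the minimum level (Zeb1, Zeb2, Sox9 and Msx1), and 1 of the 4 fell and 0 rose. Over all 6546 genes at that level, 7.84% fell and 0.886% rose. The median log2 ratio of the 4 was −0.76, beside −0.29 for all genes at that level. The median gene thus also had a lower share of UMIs in H2CKO, by an amount that went with gene length, as given below.

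Sox9 was at 106 CPM in control endothelial-like cells (98.3 to 115; 655 UMIs) and at 22.3 CPM in H2CKO (19.4 to 25.5; 212 UMIs). The intervals did not overlap, and the log2 ratio was −2.03, or −1.74 relative to the median gene. The fold was 4.77 lower with a counting interval of 4.08 to 5.60. Only 0.412% of the genes at this level had a ratio as low.

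The difference lay in the number of cells with the transcript and in the amount per positive cell. Sox9 had a UMI in 118 of 372 control cells (31.7%) and in 80 of 752 H2CKO cells (10.6%), at median depths of 12769 and 10260 UMIs. Positive cells held on average 5.55 and 2.65 UMIs of Sox9, and 47 control cells against 14 H2CKO cells held at least 5. With every cell thinned to 5000 UMIs, which left out 21 control and 58 H2CKO cells, the share was 21.7% (17.5 to 26.3) against 7.20% (5.39 to 9.39). Erythroid-like cells, a type that should lack Sox9, had a thinned share of 1.45% and 0.541% at median depths of 18353 and 13228 UMIs, below the endothelial shares in both libraries.

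Msx1 was at 47.1 CPM in the control (41.8 to 52.8; 290 UMIs) and at 23.8 CPM in H2CKO (20.8 to 27.1; 226 UMIs). The intervals were apart, with a CPM ratio of 0.505 (0.422 to 0.603), but the log2 ratio of −0.86 did not reach the 2-fold limit. With cells thinned to 5000 UMIs it did, at −1.13, and the thinned share of positive cells was 14.8% against 9.22%. Whether Msx1 counts as fallen therefore depends on how the cells are weighted, and its ratio also differed among the sub-clusters described below.

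The ZEB factors were the members found in most endothelial-like cells. Zeb1 was at 112 CPM (104 to 121) and 68.7 CPM (63.6 to 74.2), with −0.67 as its log2 ratio, and its thinned share was 38.7% and 27.8%. Zeb2 was at 105 CPM (96.9 to 113) and 80.7 CPM (75.1 to 86.6), and its log2 ratio of −0.36 was close to that of the median gene. Neither passed 2-fold.

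The Snail factors were near the lower limit of measurement in this class. Snai2 was at 15.6 CPM (12.6 to 19.0; 96 UMIs) and 6.20 CPM (4.72 to 8.0; 59 UMIs), with a CPM ratio of 0.398 (0.283 to 0.556), but it was under 20 CPM in both libraries. Snai1 was at 5.68 CPM (35 UMIs) and 3.57 CPM (34 UMIs), and its ratio of 0.629 had an interval of 0.381 to 1.04. Msx2 had 3 and 2 UMIs, which gives no ratio. Thinned shares of Snai1, 3.13% and 1.59%, and of Snai2, 5.98% and 4.18%, were above those of erythroid-like cells (0.152% and 0.166% for Snai1; 0.190% and 0.0416% for Snai2).

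Transcripts of other cell types differed between the libraries in the same endothelial-like cells. The 12 mesenchymal markers summed to 1085 CPM in the control and 334 CPM in H2CKO, with 8 and 4 of them above 20 CPM, and the 12 erythroid markers summed to 16096 and 45352 CPM. The class was therefore also compared without the cells rich in mesenchymal marker UMIs, with 1 limit for both libraries, chosen after seeing the data. At the 5th percentile of control mesenchymal-like cells (0.257% of a cell's UMIs), 15 of 372 control and 0 of 752 H2CKO cells were left out, and the log2 ratios were −1.84 for Sox9 and −0.84 for Msx1. At the lower percentile of H2CKO mesenchymal-like cells (0.0780%), 210 control and 83 H2CKO cells were left out, and the log2 ratios were −1.32 for Sox9 and −0.71 for Msx1. Either limit leaves out unequal shares of the 2 libraries, since the marker sum itself differed, and the part of mesenchymal and erythroid transcripts in these ratios was not tested.

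**Figure D2:**
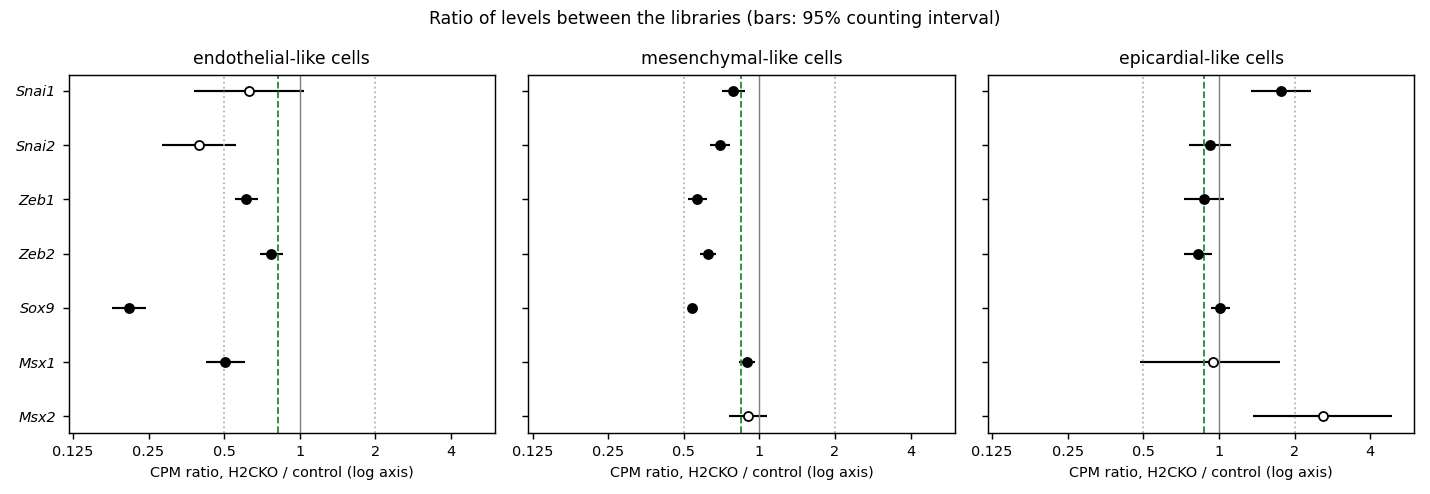
Ratio of CPM in H2CKO over control (x axis, log scale) for each gene with at least 20 UMIs in the higher library, in endothelial-, mesenchymal- and epicardial-like cells, with 95% counting intervals. Filled points reached 20 CPM and open points did not; dotted lines mark 2-fold and the dashed green line the median gene. Sox9 in endothelial-like cells, at 0.210, is the only filled point outside the dotted lines.

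The endothelial-like cells were split into 5 sub-clusters without use of the 7 genes, and the low Sox9 of H2CKO was not even across them. Sub-cluster 1, led by Lbp, Nr2f2 and Emcn, held 71 control and 292 H2CKO cells. There Sox9 stood at 87.6 CPM in the control (67.8 to 111) and fell to 2.33 CPM (0.935 to 4.79) in H2CKO, or by 3.66 on the log2 scale. The 66 control UMIs came from 10 of the 71 cells and the 7 H2CKO UMIs from 7 of 292 cells. After thinning, 1.12% of the H2CKO cells had Sox9 (0.232 to 3.25), an interval that includes the 0.541% of erythroid-like cells, so this level was not told apart from free RNA. Msx1 in sub-cluster 1 fell from 59.7 to 8.97 CPM (log2 ratio −2.21), and Zeb2 fell from 171 to 82.1 CPM (−1.02, or −0.33 against genes of its length in these cells). That is 3 of 4 measurable members, where 12.6% of all genes fell and 2.15% rose.

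In sub-cluster 4, led by Adamts8, Serpinb1a and Ptprr and holding Wnt9b and Nrg1 among its top genes, 63 control and 83 H2CKO cells were compared. Sox9 fell from 140 CPM (201 UMIs) to 28.9 CPM (40 UMIs), a log2 ratio of −2.10. Zeb1 fell from 124 to 59.3 CPM, with −1.005 just past the limit, or −0.53 against genes of its length in these cells. Msx1 was at 41.8 and 42.0 CPM and Zeb2 at 88.5 and 86.1 CPM, with overlapping intervals. Members thus differed within 1 group of cells: 2 of 5 measurable members fell, where 6.28% of all genes fell and 1.06% rose.

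Sub-cluster 2, led by Krt79 and holding the hyaluronan synthase Has2 and the elastin gene Eln among its top genes, had 164 control and 191 H2CKO cells. Here Sox9 was at 148 CPM (370 UMIs) and 77.7 CPM (150 UMIs), a ratio of 0.526 (0.432 to 0.638) and a log2 ratio of −0.88, short of 2-fold. Msx1 was at 66.3 and 56.4 CPM and Zeb2 at 94.6 and 87.0 CPM, with overlapping intervals. Zeb1 was at 110 and 55.9 CPM (−0.91). None of its 4 measurable members passed the limit, while 5.66% of all genes fell and 0.787% rose.

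Sub-cluster 3, with Irx5, Npr3 and genes of the cell cycle among its top genes (64 and 147 cells), had little Sox9 in either library, at 14.0 CPM (18 UMIs) and 5.79 CPM (15 UMIs). Its 2 measurable members, Zeb1 (121 and 78.8 CPM) and Zeb2 (116 and 83.0 CPM), did not pass 2-fold, where 9.52% of genes fell and 1.57% rose. Sub-cluster 5, with the vascular genes Fabp4 and Cldn5 (10 and 39 cells), had 0 Sox9 UMIs in both; this allows up to 16.2 CPM in the control and 4.99 CPM in H2CKO. The control thus held Sox9 mainly in sub-clusters 1, 2 and 4, and H2CKO mainly in sub-cluster 2, which gave 150 of its 212 UMIs. The make-up of the class also differed, and with sub-clusters 1 to 4 weighted equally the log2 ratio of Sox9 was −1.60 and that of Msx1 −0.55.

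In mesenchymal-like cells none of the 7 members passed 2-fold. Of 6 members at the minimum level 0 fell and 0 rose, beside 3.55% and 0.475% of 6531 genes. Their median log2 ratio was −0.57, against −0.24 for all genes.

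Sox9 was the member closest to the limit, at 582 CPM in the control (572 to 592; 13098 UMIs) and 315 CPM in H2CKO (305 to 326; 3609 UMIs). The intervals were far apart, the CPM ratio was 0.541 (0.521 to 0.561), and the log2 ratio was −0.88. Of all genes, 7.30% had a ratio as low or lower. A UMI of Sox9 was found in 1502 of 1604 control cells (93.6%) and 915 of 1080 H2CKO cells (84.7%), or in 83.1% and 70.3% after thinning. Unthinned, 61.5% of control cells and 27.1% of H2CKO cells held at least 5 Sox9 UMIs, at median depths of 12380 and 9632 UMIs.

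The Snail factors were readily measured here. Snai1 was at 58.6 CPM (55.5 to 61.9) and 46.2 CPM (42.3 to 50.3), which is −0.31 in log2, and Snai2 at 86.3 CPM (82.5 to 90.2) and 60.2 CPM (55.7 to 64.8), at −0.49. Relative to the median gene these were −0.07 and −0.24. Thinned shares were 24.0% and 19.8% for Snai1 and 31.7% and 25% for Snai2.

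Zeb1 was at 95.6 CPM (91.6 to 99.8) and 54.2 CPM (50.0 to 58.7), which is −0.76 in log2. Zeb2 was at 142 CPM (137 to 147) and 88.9 CPM (83.5 to 94.5), at −0.65. The ZEB factors are the long genes of the group, and their values are taken up with gene length below.

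Msx1 was nearly level between the libraries, at 108 CPM (103 to 112) and 96.2 CPM (90.6 to 102), with a log2 ratio of −0.15 that becomes 0.09 relative to the median gene. Its thinned share was 29.5% and 28.6%. Msx2 was at 18.0 CPM (16.3 to 19.8) and 16.2 CPM (14.0 to 18.7), under the 20 CPM minimum, with a ratio of 0.902 (0.754 to 1.08).

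Markers of other types also differed in this class. The 12 mesenchymal markers summed to 4953 and 2728 CPM, the 12 erythroid markers to 11551 and 55107 CPM, and the 12 endothelial markers to 485 and 356 CPM. Without the globin-rich sub-cluster 7 and the sarcomere-rich sub-cluster 8, the log2 ratio of Sox9 was −0.79 and that of Zeb1 −0.65, and still none of the members passed 2-fold.

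Within the mesenchyme the members were not spread alike. Sub-clusters 1, 4, 5 and 6 (917 control and 612 H2CKO cells), which were rich in GFP in H2CKO at 1453 CPM, and sub-clusters 2 and 3 (655 and 391 cells), with Inhba among their top genes and GFP at 79.9 CPM, were each pooled after their values had been seen. In the control, Msx1 was at 170 CPM in the first pool and 32.4 CPM in the second, a ratio of 5.24 (4.65 to 5.92). In H2CKO it was 146 and 45.1 CPM, a ratio of 3.24 (2.76 to 3.82). Msx2 followed at 25 against 9.62 CPM in the control and 20.2 against 14.5 CPM in H2CKO. Sox9 and Snai1 differed less between the pools, at 628 against 547 CPM and 58.9 against 57.5 CPM in the control. The control ratios were 1.15 (1.11 to 1.19) for Sox9 and 1.02 (0.916 to 1.15) for Snai1. In H2CKO both were lower in the GFP-rich pool, with Sox9 at 314 against 380 CPM, a ratio of 0.828 (0.773 to 0.886), and Snai1 at 42.7 against 58.8 CPM, a ratio of 0.726 (0.605 to 0.871).

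Between the libraries, the GFP-rich pool had the lower ratio of Sox9, at 628 CPM in the control and 314 CPM in H2CKO (log2 ratio −0.99), a value just inside the 2-fold limit. The Inhba-rich pool had 547 and 380 CPM (−0.52). Msx1 lay on either side of even, at −0.21 in the GFP-rich pool and 0.42 in the other, and Snai1 at −0.42 and 0.03. Snai2 was lower in both, at −0.51 and −0.26. None of the 7 members of the first pool and none of the 6 measurable members of the second passed 2-fold, while 4.52% and 1.8% of all genes fell and 0.352% and 0.184% rose. Sub-clusters 4 and 5 were led by cell-cycle genes (such as Rrm2 and Ccnb1). Sub-clusters 1 (Ccnd2), 3 (Ccnf) and 6 (Ccnb2, Cdc20) held some among their top genes. Taken singly, sub-clusters 1, 4 and 6 had a fall in Sox9, with log2 ratios of −1.02, −1.06 and −1.74. Zeb1 fell in sub-cluster 4 (−1.22, or −0.59 against genes of its length), and Msx2 in sub-cluster 6 (−1.12; 25 and 5 UMIs, with a ratio interval of 0.114 to 1.01 that includes 1), which held 71 control and 50 H2CKO cells. In these 3 sub-clusters 6.77%, 6.79% and 14.7% of genes fell and 0.54%, 0.564% and 1.09% rose, and 6.20%, 5.38% and 2.10% of genes had a ratio as low as that of Sox9. In the globin-rich sub-cluster 7 (24 and 74 cells) Snai1 (−1.16) and Zeb1 (−1.78, or −0.83 against genes of its length) fell, where 19.9% of genes fell and 0.523% rose. In the sarcomere-rich sub-cluster 8 Sox9 was past the limit (−1.70, with 30 and 6 UMIs), where 18.3% of genes fell and 9.31% rose. Its 8 and 3 cells are too few to give a comparison.

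**Figure D3:**
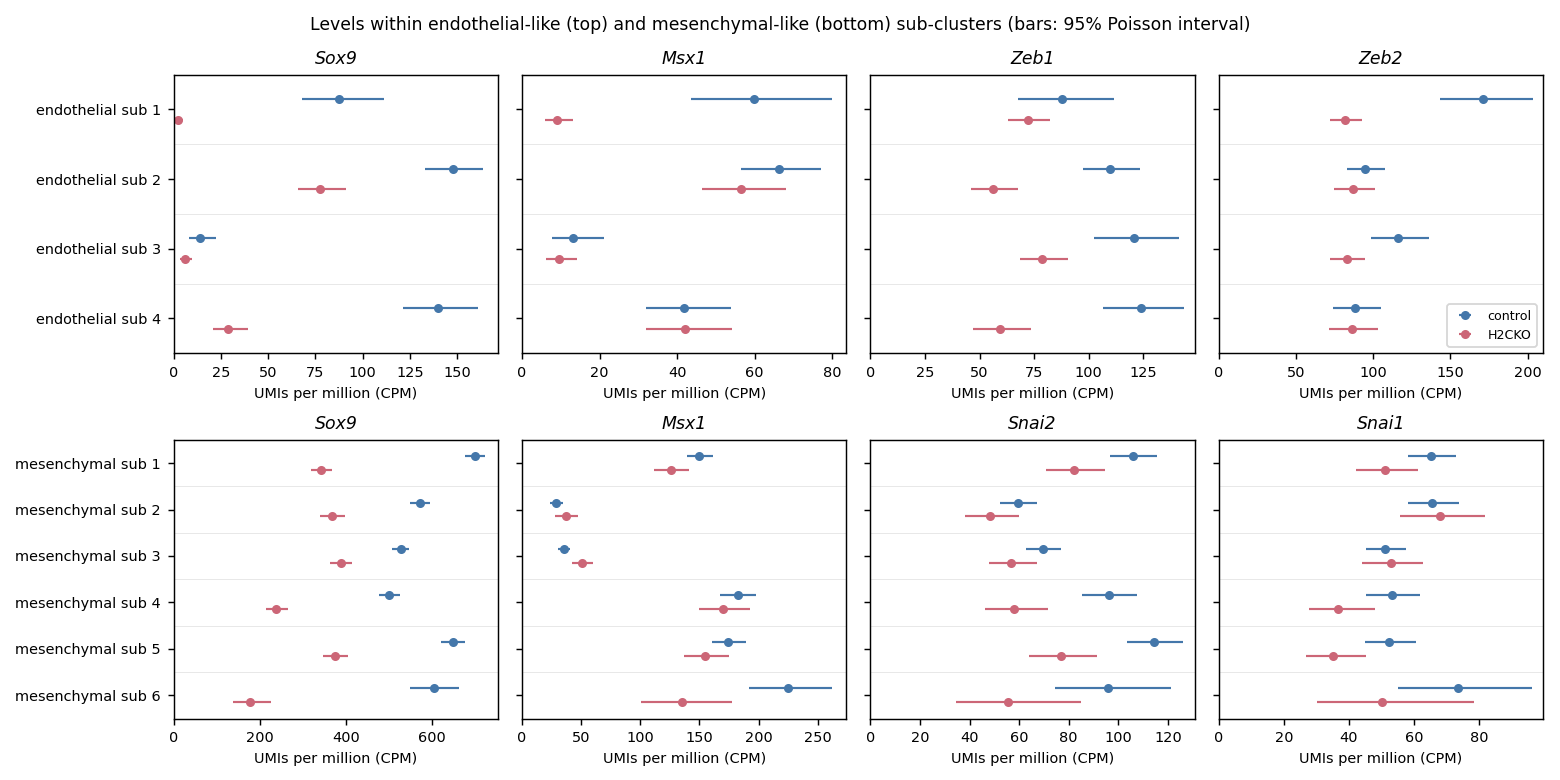
Levels in CPM (x axes) in endothelial-like sub-clusters 1 to 4 (top: Sox9, Msx1, Zeb1, Zeb2) and mesenchymal-like sub-clusters 1 to 6 (bottom: Sox9, Msx1, Snai2, Snai1), for the control (blue) and H2CKO (red) library with 95% Poisson intervals. In endothelial sub-cluster 1 Sox9 lies at 87.6 and 2.33 CPM, and in mesenchymal sub-clusters 2 and 3 Msx1 is under 51 CPM in both libraries while it exceeds 120 CPM in sub-clusters 1, 4, 5 and 6.

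H2CKO mesenchymal-like cells were also divided by the reporter itself. A GFP UMI is the sign of a cell whose lineage expressed Cre, whereas a cell without one may be unlabelled or only shallowly read, and 17.2% of control mesenchymal-like cells had one without any Cre in the label. Of 1080 cells, 409 had GFP. Hand2 was at 20.9 CPM with and 62.5 CPM without GFP. Sox9 was nearly level, at 317 and 314 CPM, a ratio of 1.01 (0.941 to 1.08). Msx1 was higher with GFP, at 127 against 77.1 CPM, a ratio of 1.65 (1.46 to 1.86). Snai1 was at 40.5 and 49.7 CPM (0.814, 0.676 to 0.978), and the ratios of Snai2, Zeb1, Zeb2 and Msx2 lay between 1.01 and 1.18 with intervals that included 1. Against the whole control class, Sox9 had a log2 ratio of −0.87 in the GFP cells and −0.88 in the others. These 2 values do not compare like cells, since the groups differed in make-up (Meox1 at 58.9 CPM with and 148 CPM without GFP). Compared pool by pool, as above, Sox9 was at −0.99 in the GFP-rich and −0.52 in the Inhba-rich pool.

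Outside these classes the epicardium, the outer layer of the heart, was the main place of Sox9, and there its level was close in the libraries. Epicardial-like cells (830 and 327) had 177 CPM of Sox9 in the control (170 to 184) and 180 CPM in H2CKO (167 to 193), a ratio of 1.01 (0.932 to 1.10). Snai1 was at 11.8 CPM (10.1 to 13.8; 158 UMIs) and 21.0 CPM (16.8 to 25.9; 86 UMIs), a ratio of 1.77 (1.35 to 2.32) and a log2 ratio of 0.62, higher in H2CKO though short of 2-fold. Snai2 (37.8 and 34.8 CPM), Zeb1 (41.2 and 36.1 CPM) and Zeb2 (84.1 and 69.4 CPM) had log2 ratios between −0.26 and −0.10, and relative to the median gene Snai2 (0.10) and Zeb1 (0.035) changed sign. Msx1 had 48 and 14 UMIs (3.60 and 3.41 CPM). Msx2 had 25 and 20 UMIs (1.87 and 4.87 CPM), a ratio of 2.60 (1.37 to 4.88) at a level too low for a call. None of the 5 measurable members passed 2-fold, beside 4.73% of genes that fell and 1.42% that rose. In this class the 12 cardiomyocyte markers summed to 3876 and 8219 CPM and the 12 epicardial markers to 3028 and 1992 CPM, and their part in the value of Snai1 was not tested.

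In cardiomyocyte-like cells (2837 and 3826) Zeb1 at 39.7 and 33.4 CPM and Zeb2 at 36.4 and 27.6 CPM were the members above 20 CPM, and neither passed 2-fold, where 0.491% of genes fell and 0.237% rose. Sox9 was at 6.10 CPM (5.45 to 6.80) and 2.12 CPM (1.81 to 2.48), too low for a call. Erythroid-like cells had 2.75 and 1.11 CPM, but depth differed between the classes, so this comparison does not tell Sox9 apart from free RNA. The class was made up differently in the libraries: cluster 4, with median depths of 1539 and 1436 UMIs, gave 1070 of the control and 237 of the H2CKO cells, and 107 of the 323 control UMIs of Sox9. In the main cluster 0 (1560 and 3408 cells) Sox9 was at 3.82 and 1.92 CPM, a ratio of 0.503 (0.399 to 0.633), against 0.348 in the class. In cluster 4 Zeb2 fell from 29.5 to 11.9 CPM (93 and 6 UMIs; log2 ratio −1.03, or −0.69 against genes of its length; ratio interval 0.144 to 0.911), 1 of 2 measurable members, where 4.92% of genes fell and 1.16% rose. Cluster 13 of the class held 3 H2CKO cells and gives no comparison. Over the class Msx2 was at 9.80 and 8.65 CPM, Snai2 at 2.25 and 1.09 CPM, Snai1 at 1.87 and 1.67 CPM, and Msx1 at 0.906 and 0.610 CPM. White blood cell-like cells (83 and 106) had the highest Zeb2 level, at 247 CPM (220 to 276; 311 UMIs) and 128 CPM (112 to 146; 223 UMIs). Its log2 ratio of −0.92 fell short of 2-fold, which 8% of genes passed downwards and 1.3% upwards in this class. In the same cells 6 megakaryocyte markers in the control and 4 in H2CKO were above 20 CPM. Summed megakaryocyte markers were at 2489 and 615 CPM, cardiomyocyte markers at 4399 and 1792 CPM and mesenchymal markers at 158 and 31.1 CPM. Endothelial (318 and 352 CPM) and erythroid markers (40686 and 39753 CPM) were closer. The part of these transcripts in the ratios was not tested. Zeb1 in white blood cell-like cells was at 15.1 and 15.6 CPM, Sox9 had 13 and 1 UMIs, and each of Snai1, Snai2, Msx1 and Msx2 had at most 3 UMIs in either library. Erythroid-like cells had 27.1 and 14.5 CPM of Zeb2 (log2 ratio −0.72; 7.68% of genes fell and 0.349% rose), and all other members at or below 3.36 CPM. Most erythroid-like cells of the control lay in clusters 5 (1282 cells) and 8 (1009), and most of H2CKO in clusters 2 (2413) and 3 (2069). In cluster 8, with 18 H2CKO cells, Zeb2 was past 2-fold (log2 ratio −1.16, with 457 and 3 UMIs). Its ratio interval of 0.0728 to 1.04 includes 1.

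Msx2 had a distribution of its own. It was highest in cluster 11, a cardiomyocyte-like cluster with Bmp2 and the conduction-system and atrioventricular canal factor Tbx3 among its top genes (98 and 178 cells), at 90.2 CPM (77.5 to 104; 178 UMIs) and 92.6 CPM (82.0 to 104; 275 UMIs). Next came cluster 9, an unnamed cluster led by Rspo3 and Masp1 with Isl1 and Bmp4 among its top genes (365 and 504 cells), at 40.1 CPM (36.1 to 44.5) and 39.7 CPM (35.5 to 44.2). The ratios were 1.03 (0.847 to 1.25) and 0.990 (0.850 to 1.15). Sox9 in cluster 9 fell from 23.2 CPM (209 UMIs) to 7.14 CPM (59 UMIs), a log2 ratio of −1.22, the single fall among 4 measurable members there, where 1.56% of genes fell and 0.188% rose. Zeb1 (65.0 and 34.6 CPM) and Zeb2 (46.4 and 26.4 CPM) in cluster 9 did not pass 2-fold. None of the 3 measurable members in cluster 11 passed 2-fold, where 1.65% of genes fell and 0.362% rose.

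The members' patterns were then compared across clusters. Over 23 points (clusters with at least 50 cells in a library, log2 of CPM plus 5, 8711 genes), Snai2 and Sox9 had a Pearson correlation of 0.98, Snai1 and Snai2 of 0.95, and Msx1 and Msx2 of only 0.14. The points share 2 libraries and the correlations are descriptions. The 3 genes most like each member were Robo2, Rtn1 and Prss35 for Snai1 (0.95 to 0.97), Scx, Sox9 and Dnm1 for Snai2 (0.97 to 0.98), and Snai2, Fbln2 and Unc5c for Sox9 (0.97 to 0.98). They were Tcaf1, Fndc3b and Myadm for Zeb1 (0.98), Ppp4r3b, Tfe3 and Capn15 for Zeb2 (0.94), Gata3, St6galnac5 and Rarg for Msx1 (0.95 to 0.96), and Tbx2, Ptges and Rspo3 for Msx2 (0.94 to 0.97).

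Within single cells the members were found together most often in the mesenchyme. With cells thinned to 5000 UMIs, 81.8% of control mesenchymal-like cells held at least 2 of the 7 transcripts and 50.0% at least 3, against 66.5% and 32.7% in H2CKO. In endothelial-like cells at least 2 were found in 34.5% of control and 19.9% of H2CKO cells, and none in 21.4% and 42.4%. Epicardial-like cells did not show this gap, with at least 2 in 34.7% and 35.1%. Erythroid-like cells held at least 2 in 0.495% and 0.166%.

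Sox9 and Msx1 were often in the same endothelial-like cells. In the control, 23 of 76 cells with Sox9 also had Msx1 (30.3%), against 10.6% of cells without Sox9. In H2CKO 15 of 50 did (30.0%), against 7.61%. Read the other way, Sox9 was in 23 of 52 control cells with Msx1 (44.2%) and in 15 of 64 H2CKO cells with Msx1 (23.4%), against 17.7% and 5.56% of the cells without Msx1. In mesenchymal-like cells Msx2 was found more often beside Msx1: 14.2% of control Msx1 cells held Msx2 against 4.77% of the rest, and in H2CKO 10.6% against 3.57%. Of the cells with Msx2, 65 of 117 in the control and 31 of 57 in H2CKO held Msx1.

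**Figure D4:**
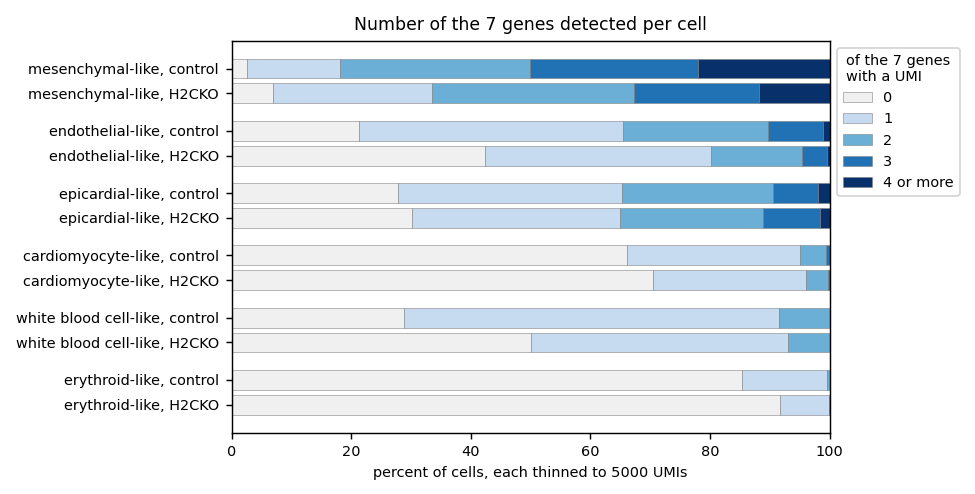
Percent of cells (x axis, every cell thinned to 5000 UMIs) in which 0, 1, 2, 3 or at least 4 of the 7 genes had a UMI (shades), by class and library (y axis). In mesenchymal-like cells at least 2 were found in 81.8% of control and 66.5% of H2CKO cells, and the endothelial-like bars differ in the same direction (34.5% and 19.9%).

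The ratio of a gene between these libraries went with the length of the gene. Across 6542 genes in endothelial-like cells the Spearman correlation of gene span and log2 ratio was −0.49, and across 6527 genes in mesenchymal-like cells it was −0.55; genes are not independent replicates. Zeb1 spans 184 kb and Zeb2 134 kb, while the other members span 3.53 to 6.19 kb. Genes as long as Zeb1 had a typical log2 ratio of −0.63 in endothelial-like and −0.64 in mesenchymal-like cells. With this trend taken out, Zeb1 was at −0.04 and −0.12 and Zeb2 at 0.25 and −0.03, so the ZEB factors lay near other genes of their length, and the sign of Zeb2 in endothelial-like cells turned. The trend was present in the other 4 classes too, with correlations from −0.54 to −0.47. With it taken out, Zeb1 and Zeb2 turned to 0.46 and 0.38 in epicardial-like cells, and Zeb2 was at 0.06 in erythroid-like and −0.32 in white blood cell-like cells. In cardiomyocyte-like cells Zeb1 turned to 0.12 and Zeb2 was at −0.01. The trend was also taken out within the clusters and sub-clusters where a fall of Zeb1 or Zeb2 is given above, except erythroid cluster 8. This step was chosen after seeing the data and left none of these 5 values past 2-fold (−0.83 to −0.33). Short genes had a typical ratio slightly above 0, and against it Sox9 was at −2.14 and −0.96, Snai2 at −0.95 and −0.57, and Msx1 at −0.94 and −0.24. What sets this trend was not tested.

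**Figure D5:**
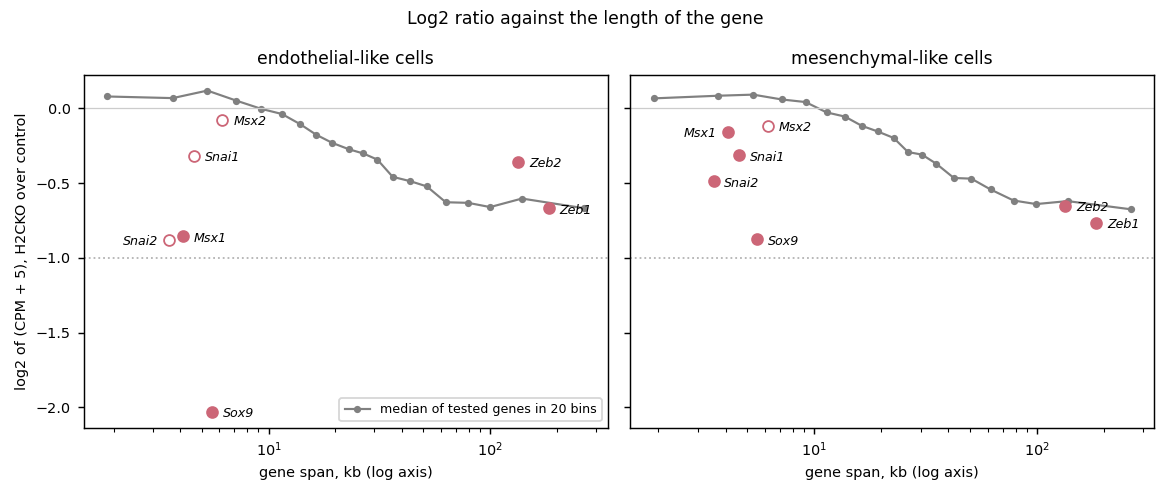
Log2 ratio of CPM plus 5, H2CKO over control (y axis), against gene span in kilobases (x axis, log scale) in endothelial- and mesenchymal-like cells. Grey points are medians of the measurable genes in 20 bins of span, and red points are the members (open where under the minimum level): Zeb1 and Zeb2 lie near the grey line, and Sox9 lies below it by 2.14 and 0.96.

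The members were set beside other genes of the same transition. Of 30 further cushion and endothelial transcription factors, 21 were measurable in endothelial-like cells, and 11 fell and 0 rose (median log2 ratio −1.09). Hand2 itself was among them; Tbx20, a T-box factor of the cushions, fell from 279 to 64.2 CPM (−2.04), Sox6 from 51.4 to 9.35 CPM (−1.98) and Twist1, a basic helix-loop-helix factor of EMT, from 130 to 37.8 CPM (−1.66). Sox9 thus had a log2 ratio close to that of Tbx20 before any account of gene length.

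Of 29 genes of BMP, TGF-beta, Notch and Wnt signalling upstream of the transition, 21 were measurable, 6 fell and 1 rose (median −0.77). The Notch ligand Jag1 (68.3 to 18.9 CPM, −1.62), the BMP receptor Bmpr1a (84.4 to 29.0 CPM, −1.39), Wnt4 (389 to 152 CPM, −1.32) and Wnt9b (59.2 to 20.8 CPM, −1.32) fell, and the Notch ligand Dll4 rose (13.1 to 33.3 CPM, 1.08). Of 16 genes of endothelial junctions and endothelial identity, 12 were measurable, 3 fell (among them Jam2, −1.44, and the receptor tyrosine kinase Tek, −1.08) and 1 rose, the claudin Cldn5, from 13.1 to 89.1 CPM (2.38). VE-cadherin, Cdh5, was at 393 and 281 CPM (−0.48), and is named here after its value was seen.

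Of 22 mesenchymal and matrix genes that the transition raises, 18 were measurable, 11 fell and 0 rose (median −1.27). The proteoglycan Vcan fell from 1069 to 173 CPM (−2.60), the matrix gene Fbln2 from 249 to 41.3 CPM (−2.46), Has2 from 121 to 24.4 CPM (−2.10) and the collagen Col1a1 from 29.5 to 4.62 CPM (−1.84). These genes overlap in part with the mesenchymal markers whose sum was lower in the same cells, and Twist1 of the transcription factors is also such a marker. The shares stand beside 7.84% of all genes that fell, and the lists were drawn up with earlier results of these data known. None of the list values was set against genes of like length, and the part of the length trend in them was not tested.

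In mesenchymal-like cells fewer of the same genes passed the limit and 0 rose in any list. Of the transcription factors 3 of 24 measurable fell (Hand2, Tbx20 and Tbx2, with log2 ratios of −1.84, −1.07 and −1.06), of the signals 1 of 17 (Bmpr2, −1.29), of the junction genes 0 of 6 and of the matrix genes 6 of 20, beside 3.55% of all genes that fell and 0.475% that rose. In the matrix list the largest falls were Vcan (2959 to 1114 CPM, −1.41), the cadherin Cdh2 (208 to 80.8 CPM, −1.31), and the collagens Col1a1 (334 to 132 CPM, −1.30) and Col3a1 (714 to 322 CPM, −1.14). The medians of the 4 lists lay between −0.72 and −0.50, and that of the 6 measurable members was −0.57, beside −0.24 for all genes. The list values were neither centred on this median nor set against genes of like length.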

How the data were processed

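Single cells of whole hearts were measured in 1 library per genotype with the 10x Genomics 3′ chemistry, per the labels' protocols. For each library the authors deposited a matrix of raw UMI counts of Ensembl genes by cell barcode. The deposited embedding coordinates, a score without a unit, served only to mark a subset of 5408 control and 6232 H2CKO barcodes. Cell Ranger 5.0.1, Seurat 4 and GRCm38.p6 are named in the submitters' processing notes, without their roles. Symbols matched 22285 of 22401 features.

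Barcodes under 500 genes or over 10% mitochondrial UMIs were left out. Scrublet (scanpy 1.11.5, expected rate 6%) marked 1048 control cells as doublets (10.65%). In H2CKO it marked 0, under the set minimum of 0.5%, so the highest scores, at most 5% (560 cells, 4.612%), were left out. The 2000 most variable genes without the members, Hand2 and the reporters gave 30 principal components, 15 neighbours per library and Leiden clusters at resolution 1 (leidenalg 0.10.2). Clusters were named "-like" from 11 marker lists. Endothelial- and mesenchymal-like cells were clustered again at resolution 0.8.

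UMIs were summed per class and library. Intervals are 95% exact Poisson (CPM), Clopper-Pearson (shares) and exact conditional (ratios), computed with scipy 1.17.1; they cover counting error only, and where 0 UMIs were counted 3 were taken as the limit. With 1 library per genotype no p-value was computed. Gene span came from GENCODE vM21. The scripts were tested on simulated data. Values of all 7 members were computed in every class. Of each gene list, up to the 4 largest changes past 2-fold in each direction are named, and of each member the 3 genes with the most similar pattern. One gene that this rule would name is not reported here. The members and lists were chosen with earlier results of these data known. Alternatives changed the pseudocount, the minimum level, the cell filter, doublet removal, the clustering, the weighting of cells and the sub-clusters.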

Additional observations from a re-analysis of the deposited data

Results flagged for a closer look

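Snai1 had values on either side of 0 in cells of the epicardium and of the mesenchyme. Its log2 ratio of H2CKO over control was 0.625 in epicardial-like cells and −0.313 in mesenchymal-like cells. Neither value passed 2-fold, and with 1 library per genotype the difference between them was not tested. The epicardial value stayed above 0 in all 14 alternatives, from 0.49 to 0.83, and rests on 158 control and 86 H2CKO UMIs. In the mesenchyme the value was −0.07 relative to the median gene, and 0.04 in each of the Inhba-rich sub-clusters 2 and 3.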

How the results depend on the processing

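No paired analysis was possible because each genotype has 1 library. In endothelial-like cells Sox9 kept its fall in 17 of 19 alternatives, those that select cells by mesenchymal markers not counted, and stayed below 0 in all 19 (−3.66 to −0.82); the exceptions were sub-cluster 2 alone (−0.885) and sub-cluster 3 alone (−0.819, under the minimum level). Without cells rich in mesenchymal markers, by 1 limit for both libraries, Sox9 was at −1.84 and −1.32. Msx1 passed 2-fold in 3 of the 19, with cells thinned (−1.13), cells weighted equally (−1.09) and sub-cluster 1 alone (−2.21), and also with a limit on mesenchymal markers set in each library (−1.16; Sox9 −2.49), which by its construction left out 83 of 752 H2CKO but 15 of 372 control cells. Limits on these markers leave out unequal shares of the libraries and say nothing of the stability of either gene. Zeb2 passed it in sub-cluster 1 alone (−1.02) and Zeb1 in sub-cluster 4 alone (−1.005). In mesenchymal-like cells Sox9 passed it in sub-clusters 1 (−1.02), 4 (−1.06) and 6 (−1.74) alone, Zeb1 in sub-cluster 4 (−1.22) and Msx2 in sub-cluster 6 (−1.12), with sub-clusters 7 and 8 not taken as alternatives, and Sox9 stayed below 0 in all 24 alternatives. In other classes, Sox9 in cardiomyocyte-like cells passed it with the stricter cell filter (−1.76), where a Rspo3-rich cluster like the unnamed cluster 9 joined the class and its main cluster held 356 H2CKO cells, and with cells weighted equally (−1.81), and in white blood cell-like cells Zeb2 passed it when thinned (−1.10) and Sox9 with no minimum level (−1.46). No call of a member in a whole class was reversed, a statement that does not cover the calls within single clusters or sub-clusters. The 513 genes that fell in endothelial-like cells became 782 with a pseudocount of 1, 160 when centred on the median gene, 174 at 100 CPM and 143 without the trend in gene span; the 58 that rose became 131 when centred, 24 at 100 CPM and 115 without the trend. In mesenchymal-like cells the 232 that fell became 451, 51, 86 and 43 under the same 4 settings, and the 31 that rose became 59 when centred, 18 at 100 CPM, 51 without the trend, 17 with only cells in the deposited embedding and 20 with cell types from their own markers. The cause of these shifts was not tested, beyond the smaller number of genes at 100 CPM. The equal weighting of sub-clusters and the removal of cells high in mesenchymal markers and of sub-clusters 7 and 8 were chosen after seeing the data. Depth limits Snai1, Snai2 and Msx2 in endothelial-like cells, and 1 library per genotype leaves the spread between embryos unmeasured.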
